A study of Mus with 14 samples.

Results

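The 51 genes described here act in G2 and M phase, the part of the cell cycle that prepares and carries out division. They were taken as a named list of mitotic genes, with no threshold on a measured value but with earlier results of these data known, and make up 51 of the 32285 genes in the deposited matrices. All 51 were measured in every group. They were read in 14 libraries of single bone marrow cells, each from 1 mouse, by droplet sequencing of the 3' ends of polyA RNA with unique molecular identifiers (UMIs, which count molecules rather than reads). CD45.2+ donor marrow had been competed against CD45.1+ marrow in aged, lethally irradiated CD45.1+ hosts, and those hosts were given 1 poly(I:C) injection. Poly(I:C) raises interferon, which switches on the Mx1 promoter and with it the Cre recombinase in blood-forming and other cells. Marrow was then moved into a second set of aged, irradiated hosts, and Lin-Kit+CD45.2+ cells, that is donor-derived progenitors, were sorted 20 weeks later. The genotype labels give 4 groups. MxCre, which names the recombinase alone, has 3 mice and Dnmt3a has 4. The double mutants are labelled Dnmt3a;Tnfr1KO, with 3 mice, and Dnmt3a;Tnfr2KO, with 4. Every group came through the same pair of transplants and the poly(I:C). The labels name no Dnmt3a allele, strain, sex or age of donor. They also do not tie the mice to primary hosts, so mice of 1 group may share a donor, and p-values then measure only the spread between these mice. By its title the study asks how the TNF receptors shape stem cell fitness and lineage output in Dnmt3a-mutant blood formation, and the genes below read how much RNA for division those cells held.

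Entry into mitosis is set by the kinase CDK1 bound to cyclin B. Aurora and checkpoint kinases, kinetochore proteins, kinesin motors and condensin then attach, align and fold the chromosomes, and the anaphase-promoting complex with its activator CDC20 ends mitosis by marking cyclin B and securin for destruction. Most of these RNAs build up in G2 and are nearly absent from resting cells. In bone marrow, the rarest stem cells are mostly quiescent, while committed progenitors divide rapidly.

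Checks on the libraries came first, because a pair of Dnmt3a libraries stood apart. Kept cells numbered 1924 to 7265 per library and held 57794061 to 145520123 UMIs. In Dnmt3a mouse 1, 26.5% of barcodes were kept after the filters and the removal of doublets, against 63.2% to 91.6% elsewhere, and the kept cells were the deepest, at a median of 39086 UMIs. Its histone transcripts summed to 8521 CPM (UMIs scaled to the same total in every library) against 1366 to 4586 in the other 13 libraries. In Dnmt3a mouse 4, 38.6% of cells fell in a B-lymphoid marker gate against 0.082% to 11.8% elsewhere, although the sort removed lineage-positive cells. Its 8 B-lymphoid markers, all 8 seen in every library, summed to 2557 CPM, while the other Dnmt3a mice held 44.61 to 194.5, MxCre mice 35.62 to 48.39, Dnmt3a;Tnfr1KO mice 51.11 to 192 and Dnmt3a;Tnfr2KO mice 33.4 to 50.27. The maturing neutrophil gate held 13.4% of the cells of mouse 4 against 0.312% to 8.36% elsewhere, and its 5 markers, seen in every library, summed to 8626 CPM in that mouse. They summed to 140.8 to 289.1 CPM in the other Dnmt3a mice, 1044 to 5255 in MxCre mice, 1044 to 1628 in Dnmt3a;Tnfr1KO mice and 164.4 to 2023 in Dnmt3a;Tnfr2KO mice. Ribosomal protein genes took 27.5% and 24.7% of UMIs in Dnmt3a mice 1 and 4, against 30.3% to 35.3% in the others. The part of these differences in the results below was tested only by leaving out the libraries, the B-lymphoid cells or the neutrophil gate. Among the targeted genes, Tnfrsf1b was at 3.92 to 5.47 CPM in the Dnmt3a;Tnfr2KO mice and at 10.2 to 17.3 in the rest. Tnfrsf1a was at 33.2 to 37.8 CPM in the libraries labelled Dnmt3a;Tnfr1KO and at 37.9 to 63.9 in the rest, and Dnmt3a itself was at 29.3 to 38.8 CPM in Dnmt3a mice, 21.5 to 30.6 in MxCre mice, 19 to 22.1 in Dnmt3a;Tnfr1KO mice and 21.3 to 23.2 in Dnmt3a;Tnfr2KO mice. Every Dnmt3a mouse was thus above every double mutant mouse, although the labels give all 3 groups the Dnmt3a genotype. A 3' tag need not lie in the altered part of a gene, so the levels of Tnfrsf1a and Dnmt3a check nothing, and "Dnmt3a;Tnfr1KO" below means the libraries so labelled. At most 23 cell barcodes were shared between any pair of libraries.

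By library totals, the 51 genes together took a near-constant share of the RNA in 3 of the 4 groups and a widely varying one in Dnmt3a mice. Summed over all kept cells, their level was 7543, 7383 and 7435 CPM in MxCre mice 1 to 3 (mean 7454 ± 81.5, SD, n = 3). Dnmt3a mice 1 to 4 held 9375, 6845, 7967 and 9953 CPM (mean 8535 ± 1402, SD, n = 4). Of those mice 3 lay above every MxCre mouse, and Dnmt3a mouse 2 lay below all of them. Dnmt3a;Tnfr1KO mice held 6824, 7446 and 7169 CPM (7146 ± 312, SD, n = 3), and Dnmt3a;Tnfr2KO mice 7041, 7169, 7256 and 7179 CPM (7161 ± 89.2, SD, n = 4). The log2 ratio of group means was 0.20 for Dnmt3a over MxCre, against a spread between replicates of 0.19 (pooled SD, log2). It was -0.26 for Dnmt3a;Tnfr1KO over Dnmt3a (spread 0.19), -0.25 for Dnmt3a;Tnfr2KO over Dnmt3a (spread 0.17) and 0.00 between the double mutants (spread 0.04). The contrasts of the double mutants with Dnmt3a use the same 4 Dnmt3a mice. Without Dnmt3a mice 1 and 4, the first 3 of these ratios came to -0.01, -0.05 and -0.05. Removing B-lymphoid cells brought Dnmt3a mouse 4 from 9953 to 8460 CPM and mouse 1 from 9375 to 9165. Removing the neutrophil gate as well left mouse 4 at 8406 CPM, and the ratio of Dnmt3a over MxCre was then 0.13. Mice 1 and 2 kept their 6 and 9 cells of that gate, too few for a sum of their own. Every mouse was also given the same weights for 5 of the 12 gates and the ungated cells. The neutrophil, megakaryocyte, B-lymphoid, dendritic cell, macrophage and eosinophil gates and that of T, NK and innate lymphoid cells were left out. This gave 9049, 6789, 8232 and 9205 CPM in the Dnmt3a mice and 7120 to 7405 CPM in the other 10. With TMM (a scaling factor per library from the bulk of genes) the ratio became 0.10 for Dnmt3a over MxCre, and -0.05 and -0.04 for the double mutants over Dnmt3a. The median of all genes under library totals was itself -0.25 and -0.24 in those contrasts, against -0.05 and -0.03 under TMM, and it was 0.12 against 0.03 for Dnmt3a over MxCre. TMM factors were 0.9626, 1.02 and 1.088 in MxCre mice 1 to 3, so under TMM their levels lay further apart. Dnmt3a mouse 3 (factor 1.025) then fell below MxCre mouse 1.

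**Figure D1:**
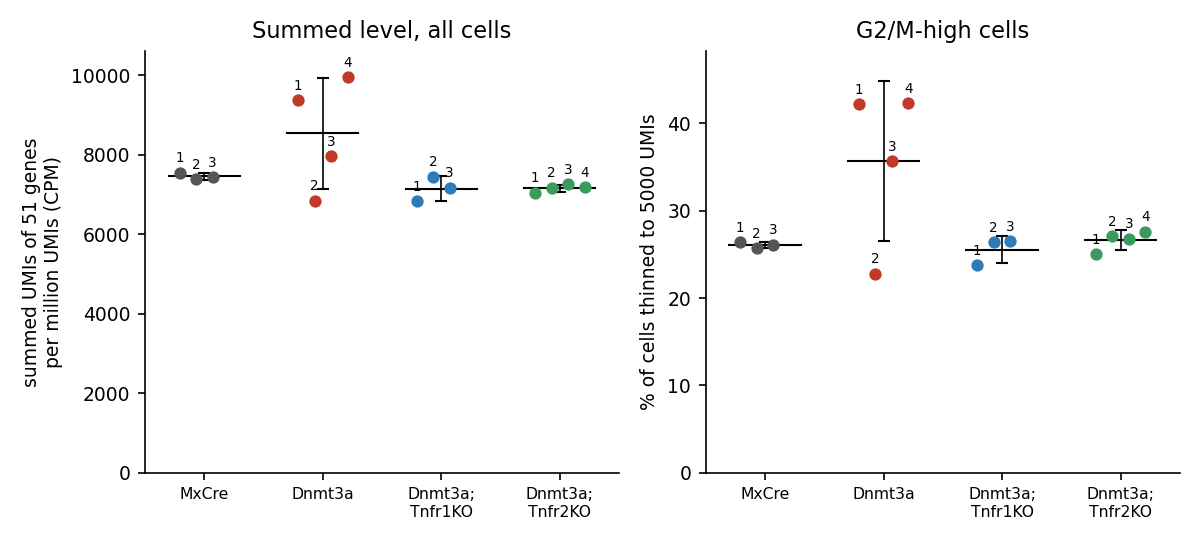
Left, summed level of the 51 genes in each mouse (CPM by library totals). Right, the percentage of G2/M-high cells among cells thinned to 5000 UMIs. Points are mice with their replicate numbers, lines are group means and bars are SD. The 4 Dnmt3a mice spread from 6845 to 9953 CPM and from 22.8% to 42.3%, and the other groups sit close together.

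Cells rich in mitotic RNA followed the same pattern. Each cell was thinned to 5000 UMIs, and a cell was called G2/M-high when at least 10 of the 37 members that were seen in under 40% of cells had a UMI. The share was 26.4%, 25.7% and 26.1% in MxCre mice 1 to 3. It was 42.2% (Wilson 95% interval 40 to 44.5), 22.8% (21.3 to 24.5), 35.7% (34.4 to 37) and 42.3% (40.7 to 43.9) in Dnmt3a mice 1 to 4. Dnmt3a;Tnfr1KO mice had 23.8%, 26.4% and 26.5%, and Dnmt3a;Tnfr2KO mice 25.0%, 27.1%, 26.8% and 27.6%. Dnmt3a mice 1, 3 and 4 lay above every other mouse and Dnmt3a mouse 2 lay below every other mouse. The mean differences were 9.7 percentage points for Dnmt3a over MxCre (spread between replicates 7.1), -10.2 for Dnmt3a;Tnfr1KO over Dnmt3a (7.17), -9.13 for Dnmt3a;Tnfr2KO over Dnmt3a (6.53) and 1.06 between the double mutants (1.28). Without Dnmt3a mice 1 and 4 the first 3 were 3.19, -3.67 and -2.62 points, and without B-lymphoid cells 7.82, -8.41 and -7.26. Of B-lymphoid cells with at least 5000 UMIs, 58% to 80.6% were G2/M-high in the 3 Dnmt3a mice that had enough of them. The share was 51.7% in the 1 Dnmt3a;Tnfr1KO mouse with enough, and no MxCre or Dnmt3a;Tnfr2KO mouse had enough. Median UMIs in this gate were 3212 and 4599 in Dnmt3a mice 3 and 4, so most of their B-lymphoid cells were left out. The intervals cover counting error within 1 mouse only, and 5.21% to 9.19% of cells had 9 or 10 members, just below or at the minimum. Cells under 5000 UMIs, 660 in MxCre, 2273 in Dnmt3a, 2241 in Dnmt3a;Tnfr1KO and 1680 in Dnmt3a;Tnfr2KO mice, were left out; 1814 of them were in Dnmt3a mouse 4. Without thinning, when depth enters the count, the shares were 49.5% to 60.7% in MxCre mice, 79.2%, 60%, 75.3% and 47.5% in Dnmt3a mice 1 to 4, 53% to 62.5% in Dnmt3a;Tnfr1KO mice and 56.6% to 65.7% in Dnmt3a;Tnfr2KO mice, so Dnmt3a mouse 4 moved from the highest place to the lowest. The mean differences were then 11.2, -7.42, -4.6 and 2.82 points in the order above. Cells with none of the 37 members made up 2.38% (Dnmt3a mouse 1) to 9.48% (MxCre mouse 3) of thinned cells. No resting cell type was gated to measure free RNA; barcodes under 1000 UMIs held the 51 genes at 2005 to 3422 CPM in MxCre mice and at 8278 CPM in Dnmt3a mouse 1.

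The members differed in how widely they were detected. Ube2c, which hands ubiquitin to targets of the anaphase-promoting complex, had a UMI in 82% of G2/M-high cells and in 1.79% of low cells, those with at most 1 of the 37 members. High and low cells are defined on these 37, so for them the gap is partly built in and is a description. Across the thinned cells of a library, having a UMI of Ube2c correlated most with the number of other members seen (median over libraries 0.643), followed by Nusap1 (0.593) and Birc5 (0.574). Mki67 (0.556) and Cenpf (0.552) came next, and Mki67, outside the 37, had a UMI in 80.6% of G2/M-high and 10.9% of low cells. Hmgb2, a chromatin protein and likewise outside the 37, was seen in 91.2% of low cells, and Cbx5 and Lbr, which have roles outside mitosis, correlated least with the rest (0.106 and 0.144). These correlations are across cells of 1 library, share its depth, and describe the list. The markers also ranked the mice in different orders. Mki67 had a UMI in 71.5% of thinned cells of Dnmt3a mouse 1 against 38.5% to 39.6% in MxCre mice. Ccnb2, by contrast, was seen in 22.4% of cells of that mouse and 22.7% to 25.5% in MxCre mice, and Cdk1 in 40.5% against 37% to 42.4%.

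For each gene, Dnmt3a was compared with MxCre by edgeR's quasi-likelihood test on UMIs summed per mouse, with Benjamini-Hochberg adjustment over all 15634 genes tested, and called at an adjusted p under 0.05. Of the 51 members 3 rose and none fell: Mki67, Cenpe and Smc4. Of all genes tested, 2.32% were called. Of the members, 41 of 51 had a log2 fold above 0, with a median of 0.22, and the median of all genes was 0.03. Without Dnmt3a mice 1 and 4 it was 29 of 51, with a median of 0.03 against -0.02 over all genes. At an unadjusted p under 0.05 there were 21 members (of all genes, 23.5%), and DESeq2 called 13 (12 higher, 1 lower), against 9.82% of all genes. Without B-lymphoid cells 4 members rose, the same 3 and Cdca2, while 1.45% of all genes did. Leaving out Dnmt3a mouse 2 gave 20 calls, all higher, where 4.66% of all genes rose. Library totals in place of TMM gave 8, all higher, where 2.77% of all genes rose. No member was called when the Dnmt3a and MxCre mice alone entered the fit (0.0542% of all genes), without MxCre mouse 1, 2 or 3, without Dnmt3a mouse 1 or 3, or without Dnmt3a mice 1 and 4 together. For these left-out mice the share of all genes is not given. Gene levels below are TMM-scaled CPM, and fold changes are log2 with their standard errors (SE). Where groups are said below not to overlap for a called gene, that is a description, since the test favours separated groups. The share of all genes without overlap is not given.

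Genes of chromosome structure held 2 of the 3 calls, and 7 of the 8 had a fold above 0 (median 0.37). Mki67 (ENSMUSG00000031004, chromosome 7, 135689784 to 135716450 on GRCm38.p6) encodes Ki-67, which coats mitotic chromosomes and is the standard mark of proliferating cells. It was at 183, 174 and 185 CPM in MxCre mice and at 531, 248, 274 and 407 CPM in Dnmt3a mice, so that the groups did not overlap. It rose 2.02-fold (log2 1.01 ± 0.21, adjusted p = 0.0394). Smc4 (ENSMUSG00000034349, chromosome 3, 69004738 to 69034623), the ATPase core of condensin, was at 208, 198 and 192 CPM against 334, 257, 303 and 344 CPM, also without overlap, and rose by 0.63 ± 0.14 (adjusted p = 0.0405). Top2a, the topoisomerase that untangles sister chromatids, was at 369, 335 and 337 CPM against 600, 363, 405 and 494 CPM. Dnmt3a mouse 2 lay among the MxCre mice, and the fold of 0.42 did not pass the test (adjusted p = 0.114). Hmgb2 was the 1 gene of this set with a fold below 0. It was at 2167, 2076 and 1773 CPM in MxCre mice and 1545, 1603, 1708 and 2061 CPM in Dnmt3a mice (-0.21, adjusted p = 0.319).

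All 6 centromere and kinetochore genes had a fold above 0 (median 0.41). Cenpe (ENSMUSG00000045328, chromosome 3, 135212563 to 135273540), the kinesin that carries chromosomes to the spindle equator, was at 56.1, 48.9 and 50 CPM in MxCre mice and 123, 62.5, 82 and 99.5 CPM in Dnmt3a mice. Again the groups did not overlap, and it rose 1.77-fold (0.83 ± 0.19, adjusted p = 0.0419). Its kinetochore partner Cenpf, at 101, 93 and 99.4 CPM against 180, 103, 138 and 213 CPM, was higher in all 4 Dnmt3a mice but did not pass (0.69, adjusted p = 0.06). Cenpa, the histone variant that marks the centromere, overlapped fully: 188, 172 and 168 CPM against 148, 149, 186 and 226 CPM, with a fold of 0.01 (adjusted p = 0.979).

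The cytokinesis genes, which build and close the cleavage furrow, lay close together. Anln, Ect2 and Kif23 had folds of 0.56, 0.52 and 0.53, and adjusted p-values of 0.127, 0.0958 and 0.0659. Among the 14 spindle genes 10 had a fold above 0 (median 0.15, range -0.16 to 0.59), and none was called. Kif20b at 0.59 and Kif11 at 0.58, both mitotic kinesins, led this set. The 8 mitotic kinases and passenger proteins had a median of 0.21, from -0.03 for Birc5 to 0.69 for the checkpoint kinase Bub1 (adjusted p = 0.0538). Aurkb, the kinase of the passenger complex, was at 89.3, 78.1 and 75.3 CPM against 78.7, 72.2, 101 and 99.1 CPM. That is a fold of 0.12 (adjusted p = 0.616), with 1 Dnmt3a mouse inside the MxCre range, 1 below it and 2 above.

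None of the 5 genes of the entry kinase and the 4 exit genes was called, and whether they differ from the other role sets was not tested. Of the 5 genes of the entry kinase, 1 had a fold above 0 under TMM (median -0.08, range -0.40 to 0.28), while library totals put 46 of all 51 members above 0. Cdk1, the entry kinase itself, was at 174, 149 and 146 CPM in MxCre mice and 118, 128, 168 and 178 CPM in Dnmt3a mice (-0.08, adjusted p = 0.781). Its cyclin Ccnb2 was at 92.9, 80 and 83.9 CPM against 60.6, 67.2, 93.4 and 117 CPM (-0.02, adjusted p = 0.975). For both genes Dnmt3a mice 1 and 2 were below every MxCre mouse, and mouse 4 was above. Cks2, a small subunit that binds CDK1 (ENSMUSG00000062248, chromosome 13, 51645232 to 51650662), was at 539, 507 and 412 CPM against 288, 364, 430 and 390 CPM, the lowest fold of the list at -0.40 (adjusted p = 0.105). The 4 exit genes had folds of 0.03 to 0.13. Cdc20 was at 86.7, 72.3 and 74.6 CPM against 58.7, 63.8, 90.5 and 107 CPM (0.04, adjusted p = 0.929). The 3 nuclear envelope genes had folds of 0.03 to 0.23, and none was called.

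**Figure D2:**
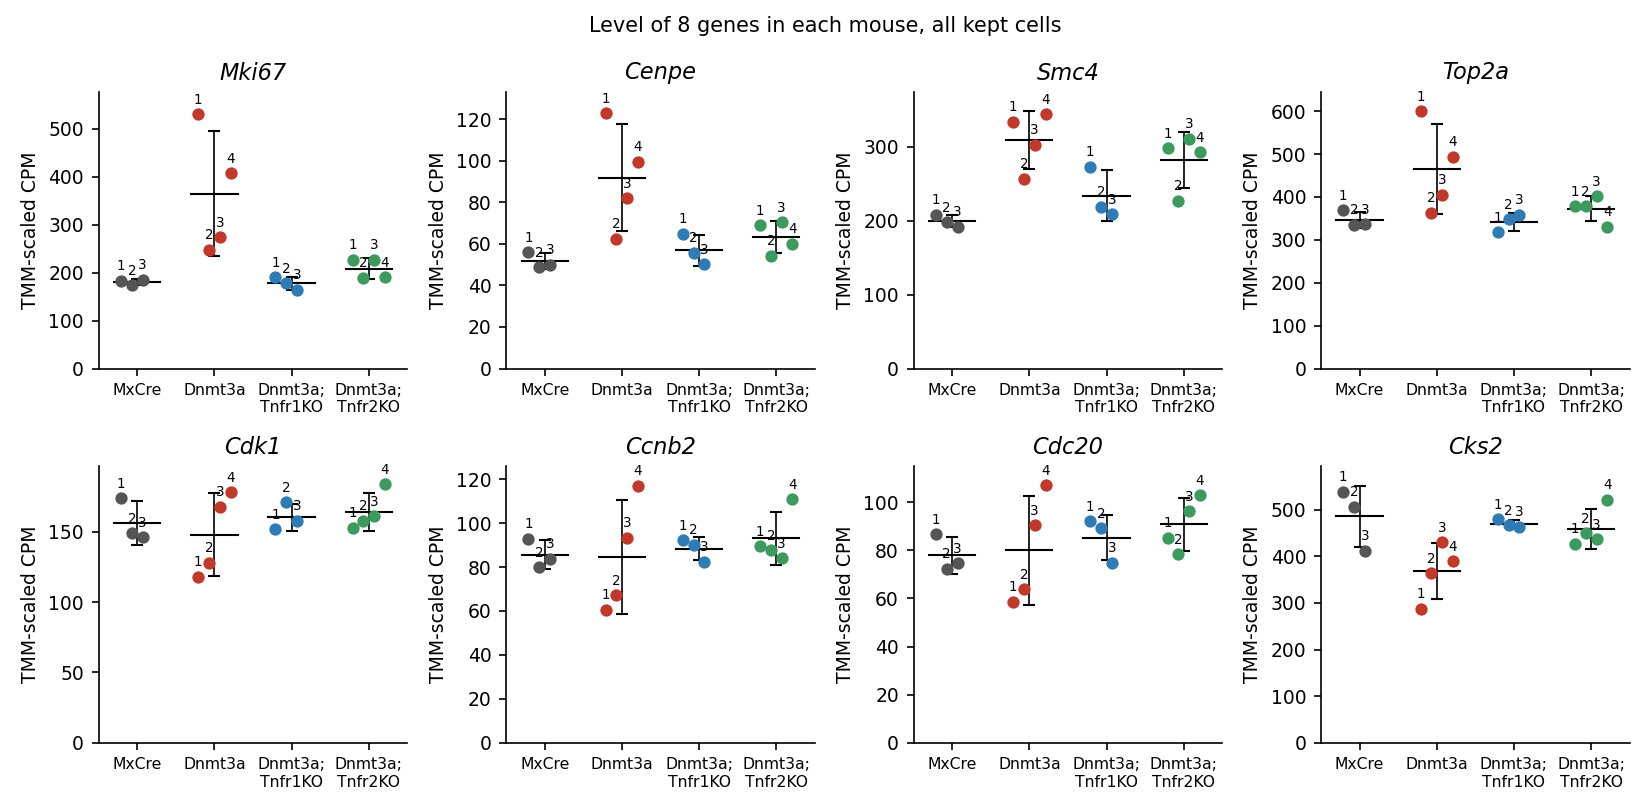
TMM-scaled CPM of 8 members in each mouse over all kept cells, with the replicate number beside each point, the group mean as a line and the SD as a bar. For Mki67, Cenpe and Smc4 the 4 Dnmt3a mice lie above the 3 MxCre mice, while for Cdk1, Ccnb2, Cdc20 and Cks2 the groups overlap.

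The Dnmt3a mice differed among themselves as to which genes were high. Against the MxCre mean, 37 of 51 members were higher in Dnmt3a mouse 1, 15 in mouse 2, 39 in mouse 3 and 47 in mouse 4. In mouse 1 the chromosome, kinetochore and cytokinesis genes were above the MxCre mean, except for Cenpa (148 CPM) and Hmgb2 (1545 CPM), which were below every MxCre mouse. So were Cdk1 (118 CPM), Ccnb2 (60.6 CPM), Cks2 (288 CPM), Cdc20 (58.7 CPM) and Ube2c (178 CPM). In mouse 4 the 4 exit genes, Cdk1, Ccnb2 and Cdc25c were above the MxCre mean as well, and Cks1b and Cks2 were below it, with Ube2c at 412 CPM against 221 to 263 CPM in MxCre mice. In mouse 2 the members lay mostly slightly below the MxCre mean (median log2 -0.16), yet Mki67, Smc4 and Cenpe were above every MxCre mouse there too.

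**Figure D3:**
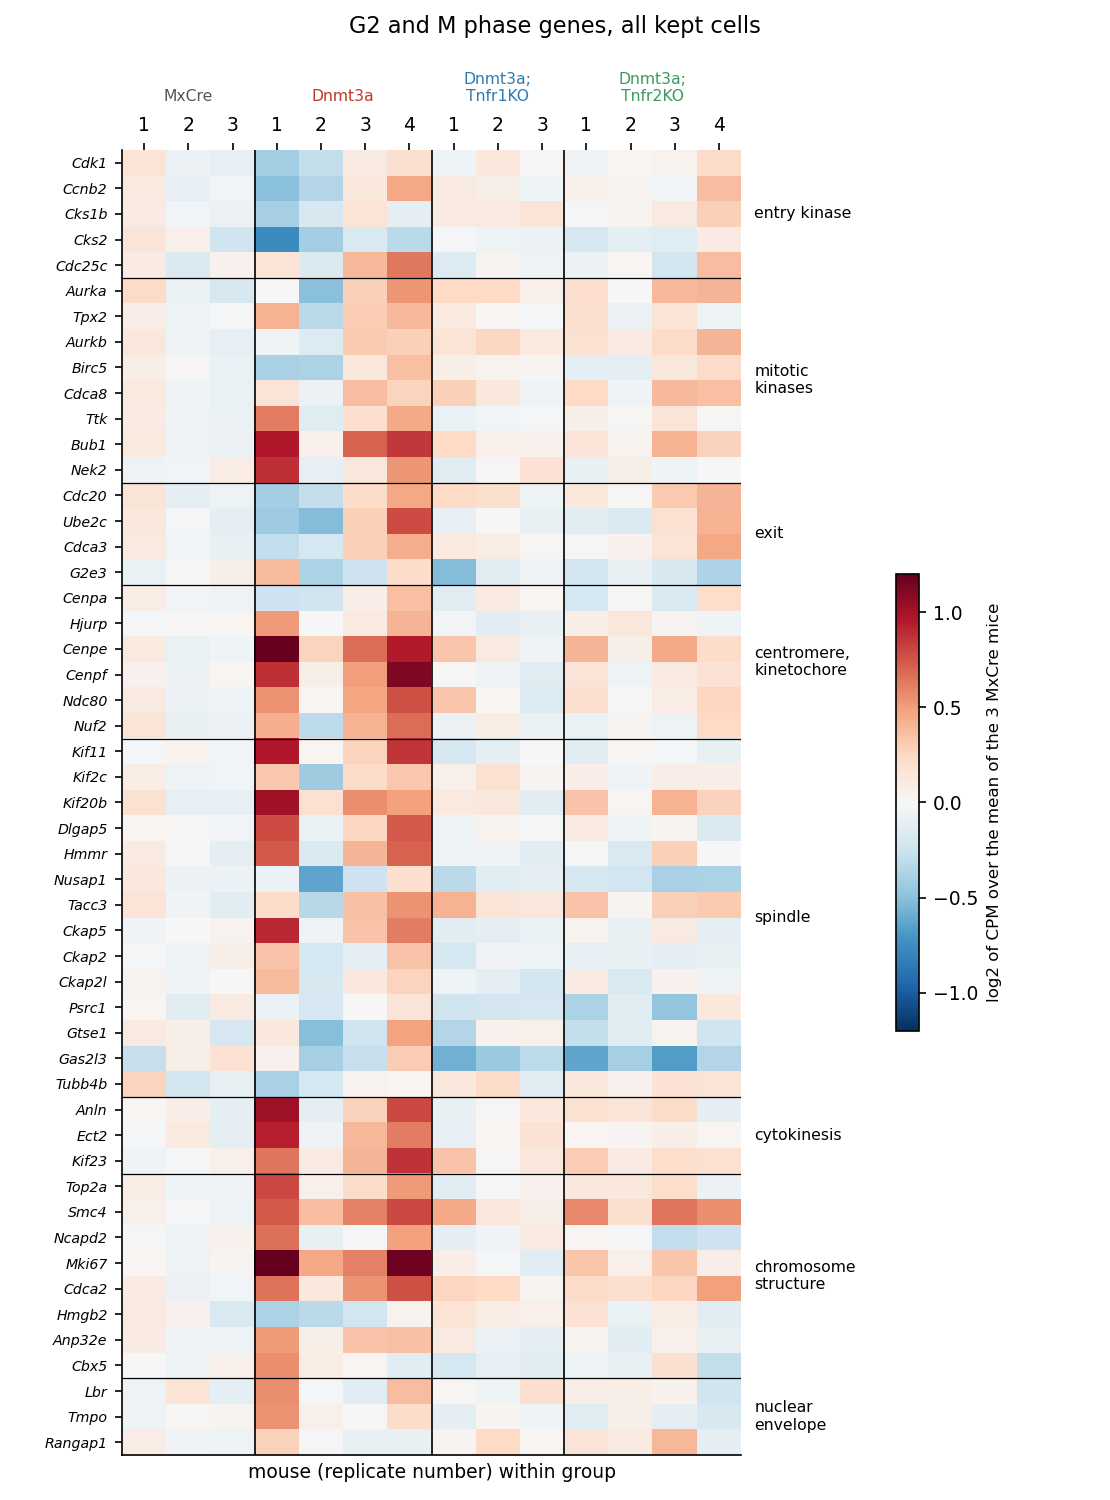
log2 of each member's TMM-scaled CPM over the mean of the 3 MxCre mice, all kept cells. Rows are the 51 genes by role, columns are mice by group, and values beyond the ends of the colour scale take the end colour. Dnmt3a mouse 1 shows kinetochore, cytokinesis and chromosome genes above 0, other than Cenpa and Hmgb2, with Cdk1, Ccnb2, Cks2 and Cdc20 below 0, mouse 4 shows 47 of 51 genes above 0, and mouse 2 shows 15.

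The double mutants were next compared with Dnmt3a to ask whether either receptor genotype moved these genes. No member was called in either contrast by edgeR's quasi-likelihood test. For Dnmt3a;Tnfr1KO, 24 members had an unadjusted p under 0.05 (19.8% of all genes did) and DESeq2 called 8. Of all genes, edgeR called 0.454% and DESeq2 5.73%. For Dnmt3a;Tnfr2KO, 19 members had an unadjusted p under 0.05 (23% of all genes did) and DESeq2 called 7. Here edgeR called 0.915% of all genes, the background, and DESeq2 6.73%. Members had a median log2 fold of -0.29 and -0.22, and all genes -0.05 and -0.03. The lowest adjusted p-values belonged to the same 3 genes. Mki67, at 191, 178 and 164 CPM in Dnmt3a;Tnfr1KO mice and 227, 189, 227 and 191 CPM in Dnmt3a;Tnfr2KO mice, lay below all 4 Dnmt3a mice, with folds of -1.04 ± 0.21 (adjusted p = 0.0517) and -0.81 ± 0.19 (adjusted p = 0.0611). Cenpf had -0.76 (adjusted p = 0.0737) and -0.60 (adjusted p = 0.0859). Kif11, the motor that pushes the spindle poles apart, had -0.68 (adjusted p = 0.0895) and -0.63 (adjusted p = 0.0767). Both contrasts use the same Dnmt3a mice. With library totals 13 and 18 members fell, where 3.35% and 9.22% of all genes fell and the median of all genes was itself below 0, as given above. Leaving out Dnmt3a mouse 2, the mouse of low levels, gave 14 and 16 members that fell, Mki67, Cenpf and Kif11 among them in each, against 1.28% and 3.38% of all genes. Without Dnmt3a mouse 3, Mki67 fell in the first contrast, and Kif11 and Mki67 fell in the second. The share of all genes called without that mouse is not given. Without Dnmt3a mice 1 and 4 the medians came to -0.06 and -0.00 and no member was called.

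The role sets are given next, with the caution that these contrasts and that of Dnmt3a over MxCre all hold the same 4 Dnmt3a mice, so opposite signs are no separate evidence. All 6 kinetochore genes and all 3 cytokinesis genes had folds below 0 in both contrasts, with medians of -0.38 and -0.48 for Dnmt3a;Tnfr1KO and -0.32 and -0.44 for Dnmt3a;Tnfr2KO. Of the 5 entry kinase genes, 4 had folds above 0 in each under TMM (medians 0.11 and 0.15), while under library totals 4 of all 51 members did in each contrast. Cks2, at 480, 467 and 464 CPM in Dnmt3a;Tnfr1KO mice and 427, 450, 437 and 522 CPM in Dnmt3a;Tnfr2KO mice, had folds of 0.35 (adjusted p = 0.181) and 0.32 (adjusted p = 0.165). Top2a was at 318, 348 and 359 CPM and at 379, 379, 402 and 331 CPM (-0.45 and -0.32, adjusted p = 0.139 and 0.188), and Dnmt3a mouse 2 (363 CPM) lay within the Dnmt3a;Tnfr2KO range and close above the Dnmt3a;Tnfr1KO range. Hmgb2 was at 2246, 2128 and 2088 CPM and at 2254, 1898, 2131 and 1823 CPM (0.32 and 0.23, adjusted p = 0.187 and 0.245). For Cdk1 (152, 171 and 158 CPM, then 153, 158, 161 and 184 CPM), Ccnb2 (92.3, 90.2 and 82.4, then 89.5, 87.7, 84 and 111), Cdc20 (92, 89.1 and 74.8, then 85.3, 78.4, 96.3 and 103), Aurkb (90.5, 96.3 and 88.1, then 91.3, 86.9, 95 and 108) and Cenpa (160, 189 and 178, then 152, 177, 156 and 203), every group overlapped the Dnmt3a mice. Their folds were between -0.04 and 0.18.

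Over all cells the double mutants were not told apart on these genes. For Dnmt3a;Tnfr2KO over Dnmt3a;Tnfr1KO edgeR called 0 of 51 members, 0 had an unadjusted p under 0.05 (3.98% of all genes did) and DESeq2 called 0. Of all genes, edgeR called 0.192% and DESeq2 0.652%. The median fold was 0.05 (all genes 0.02), and role medians ran from -0.05 to 0.11. Smc4 had the highest fold of the list, 0.27, with 273, 219 and 209 CPM in Dnmt3a;Tnfr1KO mice and 298, 227, 311 and 293 CPM in Dnmt3a;Tnfr2KO mice. The ranges overlapped, and every member's adjusted p was 1.

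Of 56 further mitotic genes outside the list, 2 rose in Dnmt3a over MxCre: the kinetochore scaffold Knl1 (0.70, adjusted p = 0.0419) and Sgo2a, which guards cohesion at the centromere (0.70, adjusted p = 0.0468). Their median fold of 0.22 equalled that of the members. None of the 56 was called in the other 3 contrasts (medians -0.16, -0.18 and 0.03).

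To read the genes within lineages, cells were gated on UMIs of marker genes that include no member. The gates were checked with genes not used in them. Mpo and Prtn3 were highest in the granulocyte gate, S100a8 in the neutrophil gate, Irf8 in the monocyte gate, Cpa3 in the basophil and mast cell gate and Rag1 in the B-lymphoid gate. Meis1 was higher in the megakaryocyte gate than in the stem and multipotent gate, which came next. Median levels of the 51 genes over mice, as CPM within the gate, were 10627 CPM in maturing neutrophils, 8777 in basophil and mast cell, 8509 in erythroid, 8032 in stem and multipotent, 8018 in megakaryocyte, 7617 in monocyte and 6727 in granulocyte progenitors. Of these 7 gates the neutrophil gate was the highest in 10 of the 12 libraries that had it, and the granulocyte gate the lowest in 12 of 14. A single member, Hmgb2, made up a median of 43.4% of the sum in the neutrophil gate and of 24.1% to 27.8% in the other 6. Without Hmgb2 the neutrophil median was 5986 CPM, between the granulocyte (4850) and the basophil and mast cell gate (6449), and this gate was the highest in 3 of 12 libraries. The granulocyte level was below the monocyte level in 14 of 14 libraries, while the stem gate was above the erythroid gate in 3 of 14 and above the megakaryocyte gate in 5 of 12. G2/M-high shares were taken over cells with at least 5000 UMIs only. Their median was 45.5% in the neutrophil gate (11 libraries), 34.5% in basophil and mast cell and 30.7% in monocyte progenitors. It was 29.9% in megakaryocyte, 29.7% in stem and multipotent, 29.4% in erythroid and 23.8% in granulocyte progenitors. Median UMIs in the neutrophil gate were as low as 5862 (MxCre mouse 3), so its share leaves out the shallower cells.

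**Figure D4:**
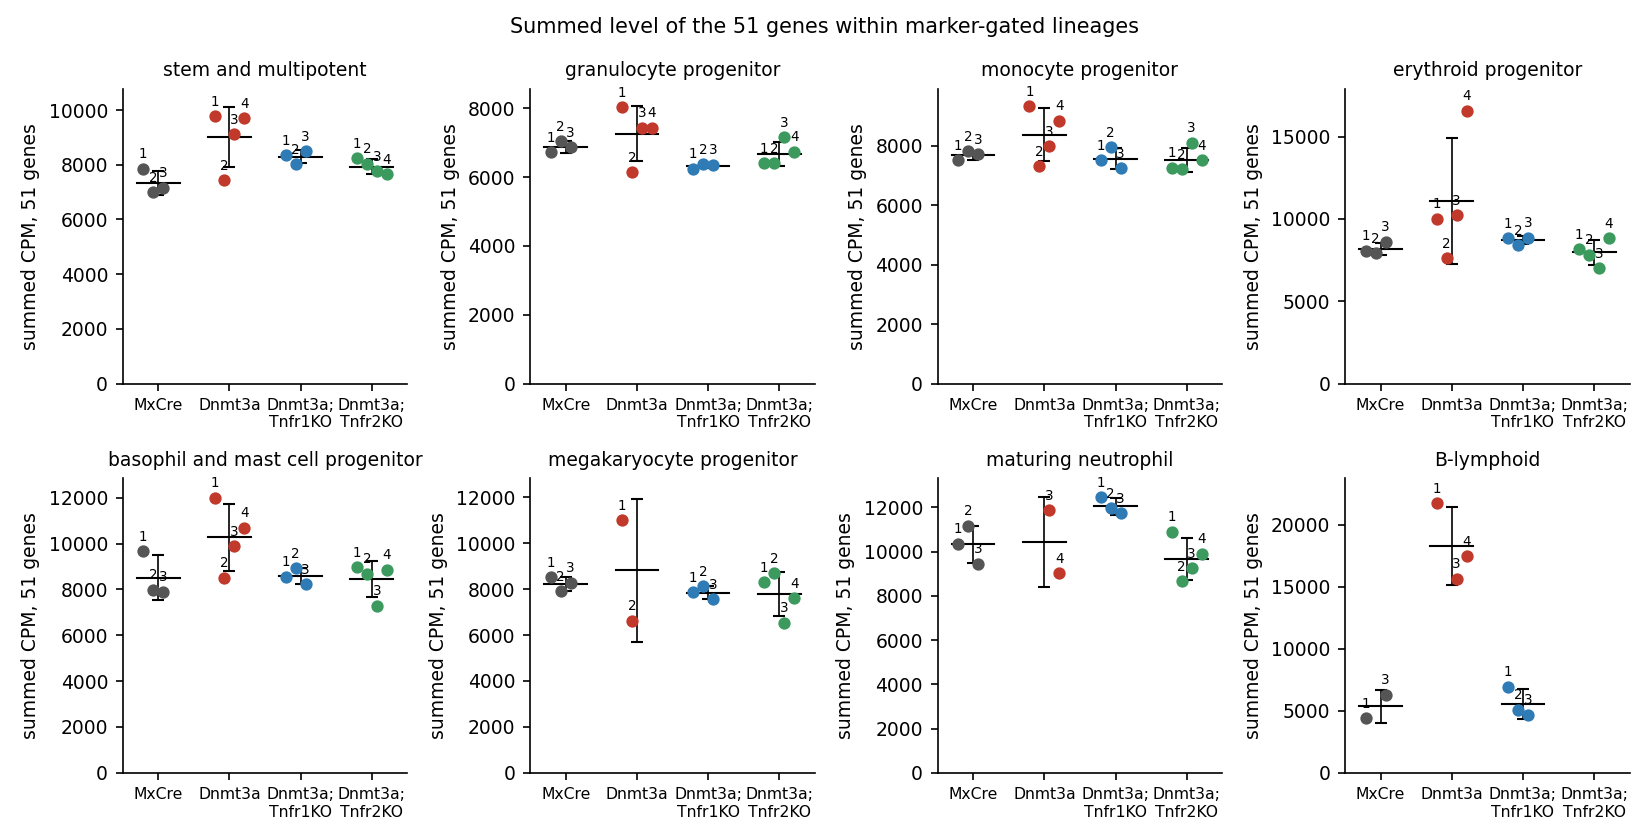
Summed level of the 51 genes (CPM) within each marker gate, for each mouse with its replicate number; lines are group means, bars are SD, and a gate with under 20 cells in a mouse has no point. In the stem, granulocyte, monocyte, erythroid and basophil and mast cell gates Dnmt3a mice 1, 3 and 4 lie above every MxCre mouse, and the erythroid value of Dnmt3a mouse 4 is 16558 CPM.

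Within the stem and multipotent gate the Dnmt3a mice held 9779, 7441, 9108 and 9706 CPM of the 51 genes and MxCre mice 7849, 6993 and 7160 CPM. Dnmt3a;Tnfr1KO mice held 8354, 8025 and 8485 CPM and Dnmt3a;Tnfr2KO mice 8245, 8038, 7774 and 7660 CPM, above MxCre mice 2 and 3 and below Dnmt3a mice 1, 3 and 4. This gate had the most calls: 13 of 51 members rose over MxCre and none fell, with a background of 9.1%. At an unadjusted p under 0.05 there were 27 (of all genes, 25.7%), DESeq2 called 16 (10.7% of all genes), and 45 of 51 had a fold above 0 (median 0.28, all genes 0.01). Mki67 was at 231, 203 and 208 CPM in MxCre mice and 621, 335, 444 and 429 CPM in Dnmt3a mice (1.10 ± 0.18, adjusted p = 0.00326). Smc4 was at 229, 181 and 201 CPM against 341, 283, 342 and 342 CPM (0.68 ± 0.12, adjusted p = 0.00468). Cenpe was at 67.4, 50 and 55.4 CPM against 131, 76.6, 98.5 and 120 CPM (0.88 ± 0.17, adjusted p = 0.00598). None of these 3 overlapped between the groups. Bub1 (0.80), Kif20b (0.77), Kif11 (0.69), Cenpf (0.66) and Cdca2 (0.62) followed, with adjusted p-values of 0.0115 to 0.0178, and Top2a rose by 0.51 (adjusted p = 0.0265). Cdk1 was at 168, 139 and 147 CPM against 114, 149, 174 and 178 CPM and was not called, nor was any other entry or exit gene. Among the 56 further mitotic genes 13 rose, led by Knl1 (0.83), Ncapg (0.70), Kif15 (0.69), Sgo2a (0.66) and Kif4 (0.63).

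The number of calls in the stem gate moved with single mice, the genes at its head less so. It was 3 without MxCre mouse 2 or 3 (2.19% and 1.32% of all genes), 15 without MxCre mouse 1 (8.07%), and 8, 25, 11 and 9 without Dnmt3a mouse 1, 2, 3 or 4 (5.18%, 11.6%, 6.44% and 6.2%). With the 2 groups alone in the fit it was 8 (6.76%). Without Dnmt3a mice 1 and 4 together it was 2, Mki67 and Smc4 (1.13% of all genes). Against Dnmt3a, no member was called for Dnmt3a;Tnfr1KO in this gate (14 at an unadjusted p under 0.05 against 16.3% of all genes, 3 by DESeq2 against 2.44% of all genes, background 0.893%). Mki67 was at 328, 250 and 248 CPM (-0.74, adjusted p = 0.0625), Cenpe had -0.62 (adjusted p = 0.0939) and Hmgb2 0.40 (adjusted p = 0.0939). For Dnmt3a;Tnfr2KO none was called either (18 unadjusted against 15.3%, 3 by DESeq2 against 2.05%, background 0.516%). Mki67 was at 377, 257, 297 and 278 CPM (-0.60, adjusted p = 0.103). Anp32e, a chaperone of a histone variant, had -0.39 (adjusted p = 0.0811) and Bub1 -0.60 (adjusted p = 0.11). Mki67 thus lay above the MxCre range in all 7 double-mutant mice in this gate, and 1 of the 7 exceeded the lowest Dnmt3a mouse. Between the double mutants none was called (0 unadjusted against 4.76%, 0 by DESeq2 against 0.213%, background 0.107%).

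In the granulocyte gate, which held the lowest median sum of the 7 tested gates, members moved both ways. The sum was 6718, 7054 and 6864 CPM in MxCre mice and 8030, 6139, 7441 and 7438 CPM in Dnmt3a mice. Mki67 (0.96 ± 0.19, adjusted p = 0.0166) and Smc4 (0.48 ± 0.11, adjusted p = 0.0224) rose. Cks2 (-0.56 ± 0.13, adjusted p = 0.0259), Hmgb2 (-0.46 ± 0.10, adjusted p = 0.0211) and Nusap1, which bundles spindle microtubules (-0.45 ± 0.12, adjusted p = 0.0385), fell. That is 5 of 51 with a background of 5.61%, with 23 at an unadjusted p under 0.05 against 23.9% of all genes, and 11 by DESeq2 against 10% of all genes. Mki67 was at 108, 125 and 113 CPM against 336, 172, 191 and 197 CPM. Cks2 was at 609, 601 and 552 CPM against 292, 395, 472 and 437 CPM, and Hmgb2 at 2116, 2075 and 1941 CPM against 1313, 1469, 1596 and 1548 CPM. All 3 were without overlap between the groups. With library totals in place of TMM, which moved the median of all genes to 0.20, 17 members rose (13.6% of all genes did) and 2 fell (1.63% of all genes), Cks2 by 0.37 and Hmgb2 by 0.27, and Nusap1 had -0.24 (adjusted p = 0.218). There was no call without any 1 of the MxCre mice, settings for which the share of all genes is not given. Leaving out Dnmt3a mouse 1, 2, 3 or 4 gave 4, 11, 6 and 4 calls (3.34%, 6.94%, 5.07% and 3.73% of all genes). With the 2 groups alone in the fit there were 2 (2.22%).

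The granulocyte gate was also where most calls against Dnmt3a fell. In Dnmt3a;Tnfr1KO mice 6 members fell: Mki67 (-0.99 ± 0.19, adjusted p = 0.0132), Cenpe (-0.64), Kif11 (-0.63), Cenpf (-0.59), Ckap5 (-0.59), which polymerises spindle microtubules, and Bub1 (-0.55). Hmgb2 rose by 0.41 ± 0.10 (adjusted p = 0.0342), a call lost under library totals (0.18, adjusted p = 0.0955), where 24 members and 15.1% of all genes fell and the median of all genes was -0.22. With a background of 4.59%, 27 were at an unadjusted p under 0.05 against 24.1% of all genes, and DESeq2 called 17 (9.42% of all genes). Mki67 was at 121, 103 and 113 CPM and Hmgb2 at 2015, 1995 and 1901 CPM there, both inside or close to the MxCre values. The sum of the 51 genes in these mice was lower, at 6246 to 6383 CPM by library totals. MxCre mice held 6718 to 7054 CPM, Dnmt3a;Tnfr2KO mice 6400 to 7156 CPM and Dnmt3a mouse 2 6139 CPM. G2/M-high cells made up 17.9% to 19.8% of thinned cells in Dnmt3a;Tnfr1KO mice and 21.7% to 27% in MxCre mice. They made up 20.4% to 26% in Dnmt3a;Tnfr2KO mice and 19.7% to 38.4% in Dnmt3a mice. These gaps were not tested. For Dnmt3a;Tnfr1KO over Dnmt3a, only Mki67 remained called without Dnmt3a;Tnfr1KO mouse 1 or 3. Nothing was called without mouse 2 of that group or without Dnmt3a mice 1 and 4. The share of all genes called is not given for these settings. Leaving out Dnmt3a mouse 1, 2, 3 or 4 alone gave 2, 18, 5 and 2 calls (2.74%, 6.93%, 4.48% and 2.66% of all genes), and with the 2 groups alone in the fit there was 1 (2.08%). In Dnmt3a;Tnfr2KO mice Mki67 fell (145, 116, 170 and 125 CPM, -0.69 ± 0.18, adjusted p = 0.0369), 1 of 51 with a background of 4.73%, 19 unadjusted against 25.3%, and 8 by DESeq2 against 9.7% of all genes. That call was lost without Dnmt3a mouse 1 or 4 and without Dnmt3a;Tnfr2KO mouse 1, 2 or 4. For those settings the share of all genes is not given. Leaving out Dnmt3a mouse 2 gave 10 calls (6.83% of all genes). Between the double mutants there was none (2 unadjusted against 3.45%, 0 by DESeq2 against 0.419%, background 0.284%). Of the 56 further genes, Knl1 (0.71) and Sgo2a (0.49) rose over MxCre. Against Dnmt3a, Knl1 (-0.70), Kif4 (-0.59), Sgo2a (-0.52), Kif15 (-0.49) and Plk4 (-0.40) fell in Dnmt3a;Tnfr1KO mice and Kif4 (-0.56) in Dnmt3a;Tnfr2KO mice.

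In the basophil and mast cell gate Mki67 and Smc4 rose again, 2 of 51 with a background of 1.04% (11 unadjusted against 13.4%, 5 by DESeq2 against 1.86% of all genes). Mki67 was at 244, 197 and 196 CPM in MxCre mice and 725, 369, 372 and 431 CPM in Dnmt3a mice (1.15 ± 0.20, adjusted p = 0.00877). Smc4 was at 239, 208 and 202 CPM against 387, 298, 304 and 344 CPM (0.62 ± 0.13, adjusted p = 0.0327). Neither overlapped. In Dnmt3a;Tnfr1KO mice Mki67, at 272, 249 and 214 CPM, fell against Dnmt3a (-0.95 ± 0.20, adjusted p = 0.0259), 1 of 51 with a background of 0.579% (16 unadjusted against 11.4%, 5 by DESeq2 against 1.2%). In Dnmt3a;Tnfr2KO mice none was called (12 unadjusted against 10.3%, 4 by DESeq2 against 0.894%, background 0.505%); Hmmr had -0.55 (adjusted p = 0.113), Mki67 -0.68 (adjusted p = 0.116) and Cenpf -0.59 (adjusted p = 0.166). Between the double mutants none was called (3 unadjusted against 3.71%, 0 by DESeq2 against 0.116%, background 0.0842%). Without Dnmt3a mice 1 and 4 there was no call in this gate, nor over MxCre without any 1 MxCre mouse, nor against Dnmt3a without any 1 Dnmt3a;Tnfr1KO mouse. The call of Smc4 was lost without Dnmt3a mouse 3 or 4. For the left-out mice in this gate the share of all genes is not given.

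In the monocyte gate 1 member rose over MxCre, Cenpf, at 89, 79.6 and 92.2 CPM against 173, 121, 133 and 124 CPM (0.66 ± 0.13, adjusted p = 0.0446; background 0.527%, 17 unadjusted against 17.4%, 7 by DESeq2 against 3.7% of all genes). Mki67 was at 172, 184 and 183 CPM against 504, 251, 270 and 335 CPM and did not pass (0.92, adjusted p = 0.0585), although the groups did not overlap. None was called against Dnmt3a. For Dnmt3a;Tnfr1KO (17 unadjusted against 18.9%, 4 by DESeq2 against 4.11%, background 1.2%) Mki67 had -0.85 (adjusted p = 0.0604), Hmgb2 0.39 (adjusted p = 0.0687) and Cenpf -0.45 (adjusted p = 0.0956). For Dnmt3a;Tnfr2KO (15 unadjusted against 20.4%, 3 by DESeq2 against 4.47%, background 1.21%) Kif11 had -0.51 (adjusted p = 0.0817), Mki67 -0.66 (adjusted p = 0.0914) and Ckap5 -0.44 (adjusted p = 0.112). Between the double mutants none was called (0 unadjusted against 2.68%, 0 by DESeq2 against 0.338%, background 0.19%). The call of Cenpf was lost without any 1 of the MxCre mice, without Dnmt3a mouse 1 or 3, and without Dnmt3a mice 1 and 4. Here too the share of all genes is not given for the left-out mice.

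A few gates rest on few Dnmt3a mice or on 1 of them. The megakaryocyte gate had at least 20 cells in Dnmt3a mice 1 and 2 alone (11004 and 6626 CPM of the 51 genes). There Mki67 rose over MxCre (1.18 ± 0.24, adjusted p = 0.0159), and Cks2 (-0.74, adjusted p = 0.0215) and Cdc20 (-0.66, adjusted p = 0.049) fell, 3 of 51 with a background of 2.81% (18 unadjusted against 22.3%, 8 by DESeq2 against 3.87% of all genes). Cks2 was at 506, 471 and 446 CPM against 281 and 286 CPM. In what follows, the share of all genes is not given for fits without Dnmt3a mouse 1 or an MxCre mouse. No call was left without Dnmt3a mouse 1 or any 1 MxCre mouse, and 25 were made without mouse 2 (19.4% of all genes), with 19 and 20 for the double mutants over Dnmt3a (11.1% and 14.5%), where the lone Dnmt3a library is assumed to vary like the other groups. Against Dnmt3a none was called for Dnmt3a;Tnfr1KO (17 unadjusted against 15.2%, 5 by DESeq2 against 1.43%, background 0.341%; Mki67 -1.02, adjusted p = 0.0653; Cks2 0.56, adjusted p = 0.124; Ube2c 0.57, adjusted p = 0.161). None was called for Dnmt3a;Tnfr2KO (22 unadjusted against 16.9%, 3 by DESeq2 against 1.59%, background 0.654%), where Cdc20 had 0.62 (adjusted p = 0.104), Mki67 -0.78 (adjusted p = 0.114) and Cks2 0.46 (adjusted p = 0.155), nor between the double mutants (1 unadjusted against 4.73%, 0 by DESeq2 against 0.18%, background 0.133%). Of the 56 further genes, Pbk fell over MxCre (-0.76), and Pttg1, which encodes securin, rose in Dnmt3a;Tnfr2KO over Dnmt3a (1.29).

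In the erythroid gate the largest folds of any gate came with no call. The 51 genes summed to 8064, 7922 and 8610 CPM in MxCre mice and to 10017, 7618, 10218 and 16558 CPM in Dnmt3a mice, and G2/M-high cells made up 63.9% of the 280 thinned cells of mouse 4 against 23.6% to 45.6% in the other 13 mice. Mki67 was at 229, 225 and 260 CPM against 667, 324, 488 and 3373 CPM (2.35 ± 0.64, adjusted p = 0.227). Kif20b, which reached 123 CPM in that mouse, had 0.80 and Cenpe 1.70, each at an adjusted p of 0.227. Of the members 49 of 51 had folds above 0 (median 0.97, all genes 0.05), 23 had an unadjusted p under 0.05 (16.5% of all genes did), DESeq2 called 3 (1.53% of all genes) and the background was 0%. Without Dnmt3a mouse 4 the median was 0.13. These folds and gene levels are TMM-scaled, unlike the sums above. With library totals and mouse 4 kept, the median was 0.61 (all genes 0.02), and no member was called. For Dnmt3a;Tnfr1KO and Dnmt3a;Tnfr2KO over Dnmt3a the medians were -0.88 and -1.02 with TMM. With library totals they were -0.50 and -0.65. Whether the B-lymphoid cells of Dnmt3a mouse 4 bear on its erythroid gate was not tested. Against Dnmt3a none was called for Dnmt3a;Tnfr1KO (19 unadjusted against 12.3%, 0 by DESeq2 against 0.635%, background 0.0544%; lowest adjusted p = 0.368 for Kif20b at -0.69, then 0.382 for Mki67 at -1.98 and Cenpe at -1.45). None was called for Dnmt3a;Tnfr2KO (38 unadjusted against 15.8%, 1 by DESeq2 against 0.608%, background 0.0817%; adjusted p = 0.262 for Mki67 at -2.01, Kif20b at -0.66 and Kif11 at -1.47), nor between the double mutants (0 unadjusted against 1.28%, 0 by DESeq2 against 0.0907%, background 0.0454%).

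The maturing neutrophil gate gave no call in any contrast. Of the Dnmt3a mice, 3 and 4 alone held 20 cells or more there (11887 and 9015 CPM against 9454 to 11165 CPM in MxCre mice). Dnmt3a;Tnfr1KO mice held 11731 to 12474 CPM, above every MxCre mouse and every Dnmt3a;Tnfr2KO mouse (8673 to 10900 CPM). Psrc1 was too low to test there, which left 50 members. Folds above 0 numbered 21 for Dnmt3a over MxCre (median -0.07) and 44 for Dnmt3a;Tnfr1KO over Dnmt3a (0.31). They numbered 27 for Dnmt3a;Tnfr2KO over Dnmt3a (0.03) and 6 for Dnmt3a;Tnfr2KO over Dnmt3a;Tnfr1KO (-0.27). Of all genes, 52.3%, 49.6%, 48.5% and 49.1% were above 0 in that order. These counts are with TMM and depend on it. With library totals 33, 32, 7 and 3 members were above 0 (medians 0.15, 0.13, -0.23 and -0.34). The medians of all genes were then 0.22, -0.17, -0.27 and -0.10. Unadjusted p-values under 0.05 numbered 4, 11, 2 and 7 for Dnmt3a over MxCre, the double mutants over Dnmt3a and the double mutants against each other, where 5.21%, 8.22%, 6.03% and 4.21% of all genes had one. DESeq2 called 0, 1, 0 and 0, against 0.22%, 0.396%, 0.308% and 0% of all genes. The backgrounds were 0.0294%, 0.0734%, 0.0147% and 0%. Mki67 (0.66, adjusted p = 0.752), Cdc20 (-0.54, adjusted p = 0.92) and Hmgb2 (-0.47, adjusted p = 0.92) led Dnmt3a over MxCre. Cdc20 (0.73, adjusted p = 0.286), Hmgb2 (0.65, adjusted p = 0.295) and Rangap1 (0.75, adjusted p = 0.4) led Dnmt3a;Tnfr1KO over Dnmt3a, and Anln (-0.61, adjusted p = 0.79), Hmgb2 (0.41, adjusted p = 0.81) and Cdc20 (0.45, adjusted p = 0.831) led Dnmt3a;Tnfr2KO over Dnmt3a.

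The B-lymphoid gate was described and not tested, since no Dnmt3a;Tnfr2KO mouse had 20 such cells. It held 21720, 15634 and 17465 CPM of the 51 genes in Dnmt3a mice 1, 3 and 4, from 77, 176 and 2094 cells. It held 4414 and 6275 CPM in MxCre mice 1 and 3 and 6943, 5078 and 4664 CPM in Dnmt3a;Tnfr1KO mice. Median UMIs per cell in this gate were 15306, 3212 and 4599 in those Dnmt3a mice and 2230 to 2907 in the MxCre and Dnmt3a;Tnfr1KO mice named.

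Across the 7 tested gates there were 356 pairs of a gate and a member. Over MxCre 19 pairs rose and 5 fell in Dnmt3a mice, 6.74% against 3.05% of the pairs of a gate and any gene. Against Dnmt3a 7 pairs fell and 1 rose in Dnmt3a;Tnfr1KO mice, 2.25% against 1.25%. In Dnmt3a;Tnfr2KO mice 1 fell, 0.281% against 1.25%, which is below the background. Between the double mutants edgeR called none, against 0.132%. Mki67 rose over MxCre in 4 gates, Smc4 in 3 and Cenpf in 2. Under TMM, Mki67, Smc4, Top2a, Cenpe, Cenpf, Bub1 and Kif11 had folds above 0 in all 7 gates. So did Ttk, Hjurp, Nuf2, Ckap5, Anln, Kif23, Ncapd2, Cdca2, Anp32e, Cbx5 and Tmpo. Cks2 alone had folds below 0 in all 7. The share of all genes with the same sign in every gate is not given. The gates share their mice, so these are not independent repeats.

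The size of the difference between Dnmt3a and MxCre mice went with the stretch of genome a member spans, a property the list was not chosen on. Spans ran from 2.54 to 93.9 kb (RefSeq, GRCm38.p6, matched by symbol for all 51), with a median of 26.7 kb. In Dnmt3a over MxCre the 25 members of longer span had a median log2 fold of 0.47, and 23 of them were above 0. The 26 others, Mki67 at the median included, had 0.10, with 18 above 0. The Spearman correlation of span and fold was 0.68 over the 51 members and 0.21 over the 14447 tested genes with a span (92.4%), whose long and short genes had medians of 0.13 and -0.03. For Dnmt3a;Tnfr1KO over Dnmt3a it was -0.76 among members and -0.34 among all genes, for Dnmt3a;Tnfr2KO over Dnmt3a -0.74 and -0.32, and between the double mutants 0.28 and 0.03. The contrasts with Dnmt3a share its mice. Within gates, Dnmt3a over MxCre gave 0.59 among members in the stem gate (all genes 0.19) and 0.73 in the granulocyte gate (all genes 0.36). Taken mouse by mouse against the MxCre mean, the longer and the other members had medians of 0.65 and -0.02 in Dnmt3a mouse 1, -0.02 and -0.21 in mouse 2, 0.30 and 0.14 in mouse 3, and 0.61 and 0.36 in mouse 4, so the longer members were higher in each of the 4. Among the other 10 mice the longer members had the higher median in 4 and the lower in 5. The widest gap there was in Dnmt3a;Tnfr2KO mouse 4, where the longer members were the lower ones (-0.04 and 0.18). Dnmt3a mouse 1, with the widest gap, also had the highest Malat1, a nuclear RNA (5107 CPM against 2499 to 4392 in the others), and the high histone level given above; the part of nuclear or unspliced RNA in the span pattern was not tested. These correlations are across genes, which share libraries, and are given as a description.

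**Figure D5:**
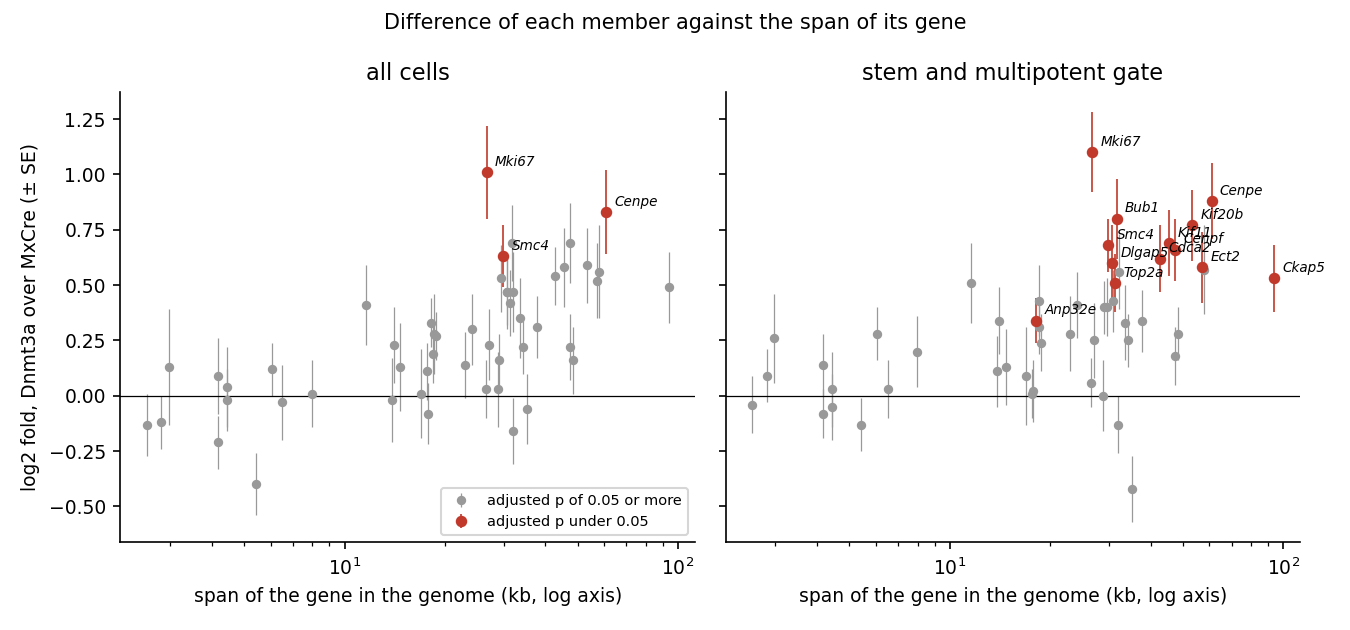
log2 fold of Dnmt3a over MxCre (± SE) for each member against the span of its gene in kb on a log axis, in all cells (left) and in the stem and multipotent gate (right). Red points passed the test. The genes of shortest span lie near or below 0 in all cells. The called genes, Mki67, Smc4 and Cenpe on the left and 13 on the right, lie at or above the median span of 26.7 kb, except for Anp32e on the right.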

How the data were processed

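Per the submitters' processing notes, reads were demultiplexed with bcl2fastq 2.20.0.422 and counted with Cell Ranger 6.0.0 on mm10 (GRCm38). The deposited matrices hold raw UMI counts per gene and cell, 1 library per mouse. Barcodes were kept from 1000 UMIs and 500 genes upwards when mitochondrial UMIs made up no more than 10%, and doublets (0.8% per 1000 cells, 50 neighbours, 30 components) were removed. Gates needed 3 UMIs from 2 marker genes of 1 lineage and a ratio of 2 to any other lineage, and 20 cells a library. UMIs were summed per mouse and gate; in such sums, fewer cells of a kind and less RNA per cell cannot be told apart. edgeR 4.0.16 (R 4.3.3) was fitted to all 4 groups with TMM, its default filter on low counts and Benjamini-Hochberg adjustment over all genes; DESeq2 1.42.0 was an alternative. Summed levels used library totals. The restricted list of 37 genes, the minimum of 10 and the leaving out of Dnmt3a mice 1 and 4 together, of B-lymphoid or neutrophil cells, or of Hmgb2 from the order of the gates were chosen after seeing the data. Members and lists were chosen with earlier results of these data known. Genes named are 8 fixed members, called members by size of fold (up to 8), else the 3 of lowest adjusted p, and up to 5 called genes of the 56 further mitotic genes; others were named after their values were seen.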

Additional observations from a re-analysis of the deposited data

Results flagged for a closer look

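In the basophil and mast cell gate, Dnmt3a;Tnfr2KO mouse 3 held 7300 CPM of the 51 genes and stood apart from the other 3 mice of its group (8690 to 8976 CPM) by Dixon's criterion at the 95% level. It was 1 of 32 groups of 4 mice examined, and chance alone gives about 1 in 20.

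Barcodes under 1000 UMIs, which entered no comparison, held the 51 genes at 2005 to 3422 CPM in MxCre mice. In 9 of the other 11 libraries they held more. Among Dnmt3a mice the level was 8278 CPM in mouse 1, 3843 in mouse 3 and 4872 in mouse 4. Dnmt3a;Tnfr1KO mice 1 and 3 held 4511 and 4534 CPM. Dnmt3a;Tnfr2KO mice 1 to 4 held 4026, 6335, 4153 and 4438 CPM. These barcodes mix empty droplets and shallow cells, and their part in the levels of the kept cells was not tested.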

How the results depend on the processing

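In all cells, the 3 calls for Dnmt3a over MxCre became 13 with DESeq2, 8 with library totals in place of TMM, 5 with a stricter cell filter, 1 with a replicate block, and 0 when only the 2 groups entered the fit or when Dnmt3a mice 1 and 4 were left out. For Dnmt3a;Tnfr1KO over Dnmt3a the 0 calls became 8 with DESeq2, 13 with library totals, 1 with no filter on low counts and 1 with the stricter cell filter. For Dnmt3a;Tnfr2KO over Dnmt3a they became 7 with DESeq2 and 18 with library totals. Leaving out each mouse in turn gave 0 to 20, 0 to 14 and 0 to 16 calls, and 0 to 0 between the double mutants. In all cells, shares of all genes are not given for the stricter filter, the replicate block or no filter. Nor are they given beside any of the ranges from leaving out each mouse. Those counts therefore stand without a background and say nothing about the members in particular. Over the 7 gates, the 24 pairs called over MxCre became 50 with DESeq2, 47 with library totals, 43 with no filter, 13 with the 2 groups alone and 2 without Dnmt3a mice 1 and 4 (3 to 71 leaving out each mouse). Of all pairs of a gate and a gene, 3.05% became 5.06%, 5.76%, 2.7%, 1.97% and 0.243%. The 8 pairs for Dnmt3a;Tnfr1KO became 35, 42, 24, 2 and 0 under those settings (0 to 50), where 1.25% of all pairs became 3.14%, 4.37%, 1.46%, 0.864% and 0.0923%, and the 1 pair for Dnmt3a;Tnfr2KO 22, 35, 16, 0 and 0, with 4 under the replicate block and 2 under the stricter filter (0 to 46), where 1.25% became 3.15%, 5.09%, 1.58%, 0.161%, 0.17%, 1.07% and 1.32%. Across genes, library totals moved the split of higher and lower calls from 186 and 177 to 433 and 140 over MxCre, from 43 and 28 to 70 and 524 for Dnmt3a;Tnfr1KO and from 92 and 51 to 136 and 1442 for Dnmt3a;Tnfr2KO. The log2 ratio of the summed level went from 0.20 to 0.10 with TMM and to -0.01 without Dnmt3a mice 1 and 4, from -0.26 to -0.05 and from -0.25 to -0.05. With TMM the double mutants' ratios were -0.05 and -0.04. Leaving out each mouse gave 0.11 to 0.29, -0.35 to -0.17, -0.35 to -0.17 and -0.03 to 0.03. Leaving out each mouse, G2/M-high differences ran from 7.53 to 14, -14.5 to -8.01, -13.4 to -6.95 and 0.179 to 1.58 points, and were 11.2, -7.42, -4.6 and 2.82 without thinning. The causes were not tested. Of 577 settings for called members 376 kept the call, 201 lost it and 0 reversed. Same-numbered libraries had correlations of their deviations of -0.22 to -0.0457 (Dnmt3a, MxCre), -0.117 to -0.00775 (Dnmt3a;Tnfr1KO, Dnmt3a), -0.0571 to 0.242 (Dnmt3a;Tnfr2KO, Dnmt3a) and 0.0427 to 0.221 (double mutants); 0 of 6, 0 of 6, 2 of 8 and 4 of 6 libraries correlated best with their own number. No set of pairs was over 0.1 throughout, so the numbers were not taken to pair the mice. Leaving out 1 of a pair of Dnmt3a libraries (neutrophil and megakaryocyte gates) assumes that the lone library varies like the other groups. Depth limits the share of cells in Dnmt3a mouse 4, where 1814 cells were too shallow to thin.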
